A study of Mus musculus with 19 samples.

Results

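Cytosolic ribosomal protein genes were followed through the loss and return of the naive state in mouse embryonic stem (ES) cells. The members are the 74 genes whose symbol in the deposited gene tables names 1 protein of the large subunit, the small subunit or the stalk of the cytosolic ribosome. They are 74 of 22756 gene entries. Another 6 entries, in which a ribosomal protein gene is joined with an overlapping gene, were left out. These include the entries of Rpl13a, Rpl26, Rps27 and Rps27a. All 74 members passed the filter on low counts in every test.

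All cells came from Rex1 GFPd2 ES cells, in which a short-lived green fluorescent protein (GFP) reports on Rex1 (Zfp42), a gene of the naive state. AICAR, the agent tested, is a nucleoside that cells turn into a mimic of AMP, the signal of low energy that activates the kinase AMPK. Differentiation was started in serum medium, and cells lacking both GFP and the surface antigen SSEA1 were sorted after 2 days and carried to day 15 with AICAR or without it. The study compared RNA in 19 libraries. Lines re-expanded after AICAR in LIF with inhibitors of MEK and GSK3 gave 8 libraries from picked colonies (colony lines 1, 3, 4, 5, 6, 7, 9 and 10) and 2 from sorted GFP-positive cells (sorted lines 1 and 2). Cells at the end of 15 days of AICAR gave 3 libraries of GFP-positive cells and 1 each of GFP-negative cells and of the unfractionated culture. The course without AICAR has 1 library each of undifferentiated cells kept in LIF and the same inhibitors, of day 2 cells, of SSEA1-negative GFP-negative day 2 cells (day 2 sorted cells) and of day 15 cells. The title of the first day 2 library mentions no sort, while its sorting label is that of the sorted one. The GFP fractions after AICAR are named so in their titles, while their sorting label reads as unsorted. Whether replicates came from separate cultures is not stated, so the spread behind each p-value may be technical.

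Ribosomal proteins assemble with ribosomal RNA in the nucleolus into the small subunit, which reads the mRNA, and the large subunit, which joins the amino acids. The stalk proteins Rplp0, Rplp1 and Rplp2 recruit translation factors. Messages of ribosomal proteins usually begin with a C followed by a run of pyrimidines, the 5′ terminal oligopyrimidine (TOP) motif, through which mTORC1 signalling sets their translation. A few members have paralogs: Rpl10l and Rpl39l are autosomal copies of the X-linked Rpl10 and Rpl39 known from male germ cells, Rpl3l replaces Rpl3 in heart and skeletal muscle, and Rps27l is a p53-responsive relative of Rps27.

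Short pyrimidine words stand near the annotated start sites of part of the family. RefSeq promoter sequences (build GRCm38.p6) were held for 56 of the 74 members, at 67 start sites. In the 30 bases centred on the start, 15 before it and 15 from it on, at least 1 of the words CTTTC, its variant CTTTT and the related CTTCC stood on the sense strand at 35.8% of members' start sites, against 13% of all 32851 start sites in the table. CTTTC alone stood at 22.4% of members' start sites and 4.05% of all, CTTTT at 7.46% and 3.15%, and CTTCC at 16.4% and 6.63%, and the 3 may overlap. The letters GGAAGT, searched on both strands over 250 bases before to 50 after the start, were present at 41.8% of members' start sites and 23.8% of all. A match is a description of the letters and not a tested site. A word that lies wholly before the start, as in Rpl13 and Rpl39l below, is not part of the annotated message. The words therefore do not establish a TOP motif, and a window without them may still hold another pyrimidine run. The windows below are shown 5′ to 3′, with any of the 3 pyrimidine words in capitals. Rps6, Rplp2, Rpl35 and Rpl13 are shown as members with a pyrimidine word in the window, and were picked for that. Rpl41, Rpl39, Rpl39l, Rpl10l and Rps27l are shown because their levels are described one by one in the results.
Rps6: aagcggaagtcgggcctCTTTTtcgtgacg
Rplp2: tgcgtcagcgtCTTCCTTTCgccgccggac
Rpl35: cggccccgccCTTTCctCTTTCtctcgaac
Rpl13: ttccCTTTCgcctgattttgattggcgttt
Rpl41: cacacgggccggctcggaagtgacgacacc
Rpl39: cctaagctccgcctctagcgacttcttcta
Rpl39l: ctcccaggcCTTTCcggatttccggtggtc
Rpl10l: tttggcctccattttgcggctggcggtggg
Rps27l, first start: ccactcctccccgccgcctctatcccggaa
Rps27l, second start: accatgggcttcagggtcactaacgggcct
These windows lie at chr4:86857353-86857382 (Rps6, minus strand), chr7:141447636-141447665 (Rplp2, plus), chr2:39005117-39005146 (Rpl35, minus), chr8:123102335-123102364 (Rpl13, plus), chr10:128549154-128549183 (Rpl41, minus), chrX:37085208-37085237 (Rpl39, minus) and chr16:10170213-10170242 (Rpl39l, plus). That of Rpl10l lies at chr12:66284387-66284416 on the minus strand, and those of Rps27l at chr9:66946071-66946100 and chr9:66946398-66946427 on the plus strand. Each spans the upstream flank and the first bases of the transcript. None of the 3 words was found at the start sites of Rpl41, Rpl39, Rpl10l or Rps27l, which says only that these letters are not in these windows.

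Reads in genes numbered 5771671 to 14233421 per library. By the file headers, replicates 1 and 2 of the AICAR GFP-positive cells were sequenced in a second project, apart from the other 17 libraries. Any comparison of AICAR GFP-positive cells without replicate 3 therefore sets the second project against the first. Cell state and project cannot be told apart there. The summed level of 8 naive ES cell markers was 3470 to 3778 library-scaled reads (CPM) in colony lines, 2201 to 3397 CPM in AICAR GFP-positive cells and 169 CPM at day 15 without AICAR, against 3831 CPM in undifferentiated cells. Col1a1, Col3a1 and the other genes of a 5-gene mesenchyme list summed to 25873 CPM at day 15, 4818 CPM in the unfractionated AICAR culture, 243 CPM in AICAR GFP-negative cells and 15.1 to 69.7 CPM in AICAR GFP-positive cells. A 3-gene smooth muscle list gave 2980, 1731 and 235 CPM in the same 3 single libraries and 8.55 to 58.2 CPM in AICAR GFP-positive cells. A 4-gene endoderm list gave 128, 754 and 189 CPM in these 3 libraries. In AICAR GFP-positive cells it gave 99.3 to 707 CPM, the highest in replicate 3. Their part in the results below was not tested. In bulk RNA, fewer cells of a type and less RNA per cell cannot be told apart. All levels in CPM are scaled by TMM factors over the 19 libraries.

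The share of all gene reads that fell in the 74 members gives the scale of the changes. It was 10.6% in undifferentiated cells, 10.4% at day 2, 9.25% in day 2 sorted cells and 4.67% at day 15 without AICAR. After AICAR it was 5.55% in the unfractionated culture and 6.26% in GFP-negative cells. AICAR GFP-positive replicates 1, 2 and 3 had 8.06%, 7.91% and 7.14%, or 7.70% ± 0.496 (SD, n = 3). Colony lines had 8.55% ± 0.784 (SD, n = 8) and sorted lines 9.50% and 9.26%. The unfractionated AICAR culture lay below both of its GFP fractions. No library after AICAR, and no line, reached the share of the undifferentiated library. The exact binomial 95% interval of the undifferentiated share runs between 10.59% and 10.63%, and covers counting error only.

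**Figure D1:**
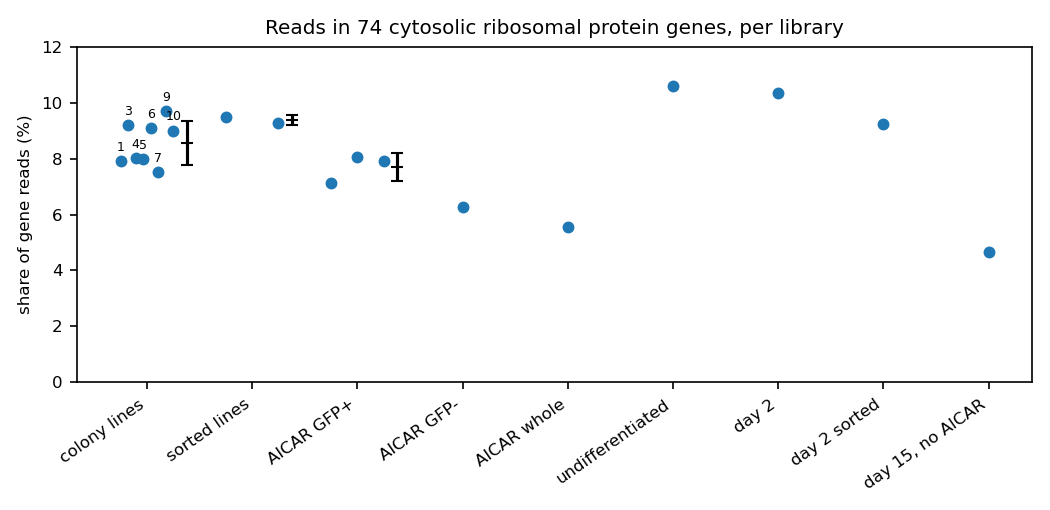
Share of gene reads (%) in the 74 ribosomal protein genes, 1 point a library; bars give mean ± SD where a group has more than 1 library, and small numbers name the colony lines. Day 15 without AICAR is lowest at 4.67% and the undifferentiated library highest at 10.6%.

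Day 2 of differentiation left most members near their undifferentiated level, with a few set apart. The median log2 ratio of the 73 members compared was -0.13 at day 2 and -0.30 in day 2 sorted cells, each against the undifferentiated library; the medians of all genes compared were -0.03 and -0.06. These are single libraries, so there is no replicate check, and the log2 ratios add a prior count of 2. At day 2, 0 members were over 1.5-fold higher, beside 14% of all genes, and 2 were over 1.5-fold lower, beside 16.6% of all genes. In day 2 sorted cells, 0 members were higher past that fold, beside 14.5% of all genes, and 3 were lower, beside 18%. Past 2-fold, 1 member was lower in each, beside 8.42% of all genes at day 2 and 9.08% in day 2 sorted cells.

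Rpl10l had 45.2 CPM at day 2 and 37.2 CPM in day 2 sorted cells, against 118 CPM in undifferentiated cells. That gives log2 ratios of -1.40 and -1.67. Rps20, a protein of the small subunit's head, had 930 and 797 CPM, against 1453 CPM in undifferentiated cells, with log2 ratios of -0.67 and -0.88. Rpl39l had 41.8 and 31.4 CPM against 58.6 CPM, and its log2 ratio was past 1.5-fold in the day 2 sorted cells, at -0.91, but not at day 2, at -0.51. Rps27l stood highest of all members in both ratios, with 281 CPM at day 2 and 271 CPM in day 2 sorted cells against 229 CPM in undifferentiated cells. Its log2 ratios were 0.27 and 0.23. Rpl4, a core protein of the large subunit, had 3977 and 3518 CPM against 3649 CPM. Naive markers at the same time summed to 775 CPM at day 2 and 674 CPM in day 2 sorted cells. In undifferentiated cells that sum was 3831 CPM, so the markers were set apart at day 2 by more than the members' median.

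By day 15 without AICAR the whole family was lower. All 73 members compared were over 1.5-fold lower than in undifferentiated cells, beside 36.2% of all genes, and 71 were over 2-fold lower, beside 25.1%. None was higher past 1.5-fold, beside 35.1% of all genes. The median log2 ratio of members was -1.46, a ratio of 0.363, with quartiles of -1.53 and -1.31; the median of all genes compared was -0.05. Against the day 2 sorted cells, from which the day 15 culture was grown, all 73 were again over 1.5-fold lower, beside 34.5% of all genes, and none higher, beside 34.2%, with a median of -1.15. Large subunit members had a median log2 ratio of -1.44 against undifferentiated cells (41 genes), small subunit members -1.48 (29 genes) and the 3 stalk genes -1.45. The subunits had like values in these single libraries.

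Around that common shift, a few members stood apart. Rpl10l had 0.936 CPM at day 15, which is 8 reads, against 118 CPM and 775 reads in undifferentiated cells. Its ratio was 0.00985, with a 95% counting interval of 0.00491 to 0.0198. Rpl39l had 2.34 CPM, or 20 reads, against 58.6 CPM and 386 reads, a ratio of 0.0427 (0.0273 to 0.067). The X-linked parents of both paralogs were among the 4 members with the smallest decrease. Rpl10, which sits near the peptidyl transferase centre, had 912 CPM at day 15 against 1869 CPM in undifferentiated cells, a log2 ratio of -1.09. Rpl39, which lines the exit tunnel, had 118 CPM against 217 CPM, a log2 ratio of -0.93 and the smallest decrease of the 73. Rpl23 (792 against 1521 CPM) and Rpl31 (507 against 1022 CPM), both autosomal, were the other 2. The remaining X-linked members, Rps4x (907 against 2375 CPM) and Rpl36a (250 against 663 CPM), were not among the 4. At the other end of the common range, Rpl8 had 788 CPM against 2702 CPM, a log2 ratio of -1.83, and Rps12 had 570 CPM against 1877 CPM, a log2 ratio of -1.77. The muscle paralog Rpl3l had 0 reads at day 15 and no more than 3.38 CPM in any library, so it carries little weight.

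**Figure D2:**
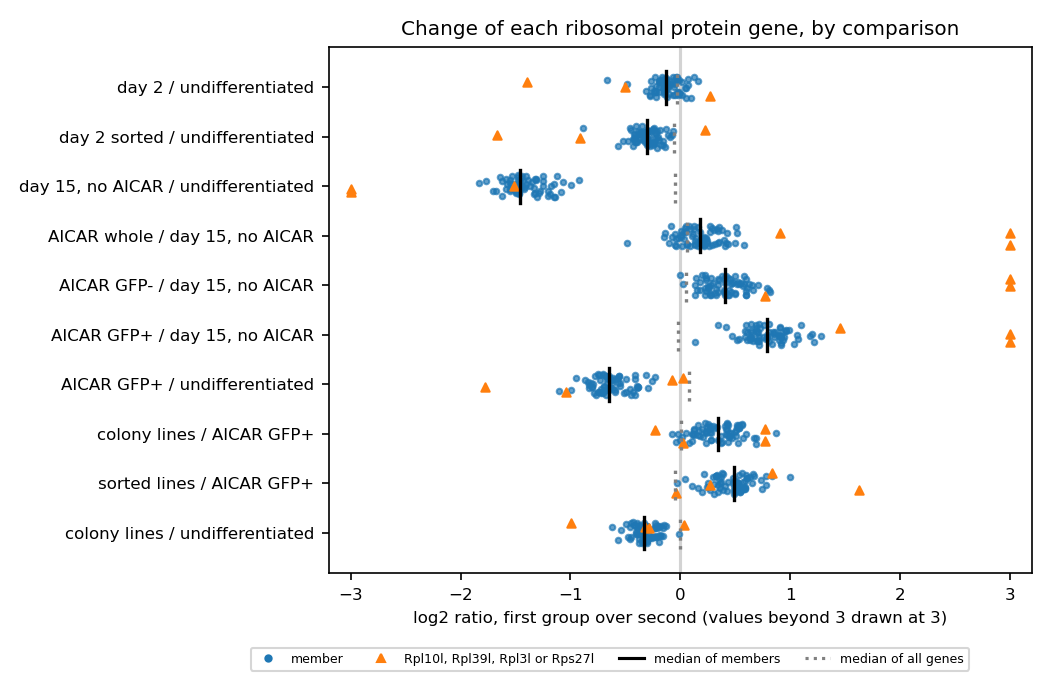
Log2 ratio of each member (points; triangles are Rpl10l, Rpl39l, Rpl3l and Rps27l) in 10 comparisons, first group over second; black lines are medians of members and dotted grey lines medians of all genes. Rpl3l, with 0 reads at day 15, is not drawn for AICAR GFP-positive cells over day 15. The members shift together at day 15 (median -1.46) and are higher in AICAR GFP-positive cells than at day 15 (median 0.79).

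The AICAR culture as a whole, and its GFP-negative fraction, were set against day 15 cells without AICAR. In the unfractionated culture, 3 of 73 members were over 1.5-fold higher, beside 22.6% of all genes, and 0 were lower past that fold, beside 23.1%. The median log2 ratio was 0.18, with 0.06 over all genes compared. The 3 were Rpl10l (30.3 against 0.936 CPM), Rpl39l (42.9 against 2.34 CPM) and Rps27l (155 against 83.2 CPM). Rpl39 had 84.0 CPM in the AICAR culture against 118 CPM at day 15, a log2 ratio of -0.48, the most negative of the members. In AICAR GFP-negative cells, 15 of 73 were over 1.5-fold higher than at day 15, beside 24.2% of all genes, with a median log2 ratio of 0.40 and 0.06 over all genes. None was lower past that fold, beside 27.5%, and 2 were over 2-fold higher, beside 11%. Rpl10l (23.4 CPM), Rpl39l (44.8 CPM), Rps21 (485 against 271 CPM) and Rpl7a (1495 against 841 CPM) had the highest ratios among them. Rps21 belongs to the small and Rpl7a to the large subunit. Rpl39 had 120 CPM in GFP-negative cells and 118 CPM at day 15. Compared with undifferentiated cells, 72 of 73 members were over 1.5-fold lower in AICAR GFP-negative cells, beside 28.6% of all genes, and none higher, beside 24%. The median was -0.97, and 33 were over 2-fold lower, beside 13.5%.

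AICAR GFP-positive cells had higher levels of most members than day 15 cells without AICAR. By the edgeR quasi-likelihood test with Benjamini-Hochberg adjustment over all genes, 60 of 74 members rose and 0 fell, beside 23.8% of all genes that rose and 22.8% that fell. All 74 had a positive log2 fold change, with a median of 0.79 against -0.02 over all genes tested. Without AICAR GFP-positive replicate 1 the count was 5, beside 14% of all genes, and without replicate 2 it was 2, beside 8.23%. Without replicate 3 it was 72, beside 31.1%. With replicate 3 left out, cell state and sequencing project cannot be told apart. The single day 15 library is assumed to vary like the 3 AICAR GFP-positive ones.

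Rplp0, the scaffold of the stalk, had 2528, 2512 and 2439 CPM in AICAR GFP-positive replicates 1, 2 and 3, against 1325 CPM at day 15. All 3 lay above the day 15 library, with a log2 fold change of 0.96 ± 0.159 (SE, adjusted p = 0.0106). Rps6, the small subunit protein that S6 kinase phosphorylates, had 1444, 1351 and 1246 CPM against 808 CPM (log2 fold change 0.79, adjusted p = 0.0210). Rpl3, at the entrance to the peptidyl transferase centre, had 2247, 1971 and 1896 CPM against 1094 CPM (0.95, adjusted p = 0.0158).

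The largest changes belonged to the paralogs. Rpl10l had 68.6, 59.8 and 44.4 CPM in the 3 AICAR GFP-positive libraries, against 0.936 CPM at day 15. Its log2 fold change was 5.98 ± 0.453 (SE, adjusted p = 0.00295). Rpl39l had 61.2, 76.1 and 42.7 CPM against 2.34 CPM, a log2 fold change of 4.72 ± 0.498 (SE, adjusted p = 0.00443). Rps27l had 264, 248 and 147 CPM against 83.2 CPM, and Rps25, a small subunit protein, had 1052, 1018 and 731 CPM against 398 CPM. Their log2 fold changes were 1.45 ± 0.391 (SE, adjusted p = 0.0365) and 1.28 ± 0.273 (SE, adjusted p = 0.02). In both, replicate 3 lay well below replicates 1 and 2 and still above day 15. Among the 14 members that did not pass were Rpl10, with 1205, 1119 and 1041 CPM against 912 CPM (adjusted p = 0.143), and Rpl39, with 136, 135 and 105 CPM against 118 CPM (adjusted p = 0.614). Reads of Rpl10l equalled 5.70%, 5.35% and 4.27% of those of Rpl10 in the 3 AICAR GFP-positive libraries and 0.103% at day 15. Reads of Rpl39l equalled 45.1%, 56.2% and 40.7% of those of Rpl39, against 1.98% at day 15. The figure was 51.1% in the unfractionated AICAR culture and 37.3% in AICAR GFP-negative cells. These percentages are not scaled by length, and the gene model is longer for Rpl39l (359 bases) than for Rpl39 (213 bases). Per length, Rpl39l had 187, 238 and 135 RPKM (reads scaled by gene model length and library size) in the 3 GFP-positive libraries, against 698, 715 and 559 RPKM for Rpl39. Counts are of uniquely mapped reads, and reads that a paralog or pseudogene shares with its parent may be lost from both.

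**Figure D3:**
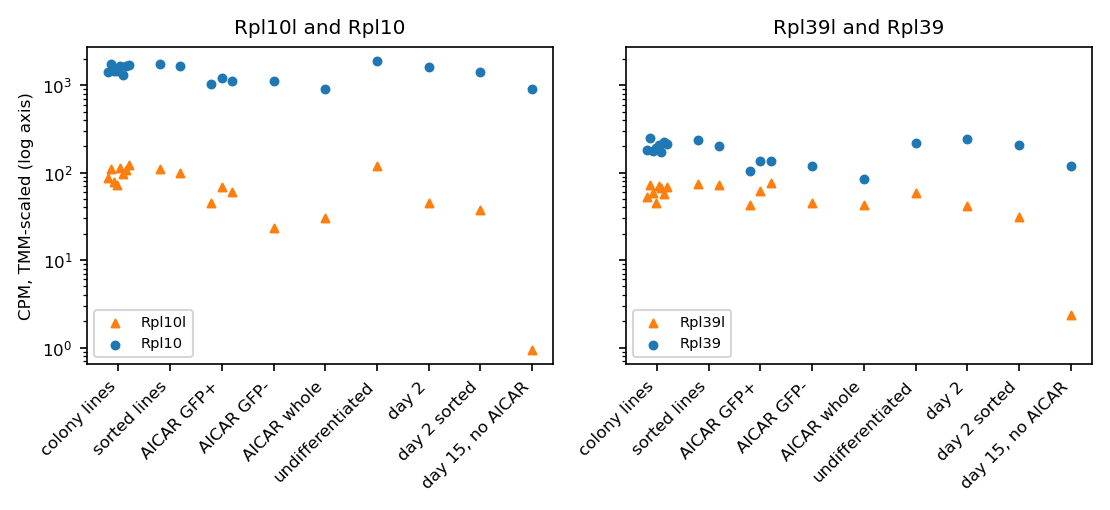
Levels (CPM, TMM-scaled, log axis) of 2 autosomal paralogs and their X-linked parents, 1 point a library. Both paralogs are lowest at day 15 (Rpl10l 0.936 CPM, Rpl39l 2.34 CPM), where the parents have 912 and 118 CPM.

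Set against undifferentiated cells, AICAR GFP-positive cells had lower levels of nearly all members. The test called 10 of 74 lower and 0 higher, beside 2.51% of all genes called lower and 2.48% called higher. The log2 fold change was negative for 73 members, with a median of -0.65, whereas the median of all genes tested was 0.08. At unadjusted p under 0.05, 62 members were lower, beside 29.3% of all genes in either direction. The count of calls depended on the setting. With replicate 3 left out, cell state and sequencing project cannot be told apart. DESeq2 called 58 lower, beside 7.62% of all genes, a fit of all 19 libraries 62, beside 14.3%, and total-read scaling 4, beside 1.66%. Without AICAR GFP-positive replicate 3 it was 67, beside 15.1%. Without replicate 1 or replicate 2 it was 0, beside 0.266% and 0%.

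Rpl41, the shortest member, had 38.5, 42.9 and 39.4 CPM in AICAR GFP-positive replicates 1, 2 and 3, against 85.6 CPM in undifferentiated cells. All 3 were under 50 CPM, and the log2 fold change was -1.10 ± 0.158 (SE, adjusted p = 0.0416). Rpl8 had 1418, 1362 and 1317 CPM against 2702 CPM (log2 fold change -0.998, adjusted p = 0.0416). Rplp1, a stalk protein, had 1116, 1136 and 951 CPM against 1935 CPM (-0.87, adjusted p = 0.0495). Rpsa, the small subunit protein also known as laminin receptor, had 2117, 2064 and 2097 CPM against 3682 CPM (-0.83, adjusted p = 0.0428). The other 6 called lower were Rps4x, Rpl13, Rps2, Rpl6, Rpl12 and Rpl7. Rpl39l had 61.2, 76.1 and 42.7 CPM against 58.6 CPM, and Rps27l had 264, 248 and 147 CPM against 229 CPM, so both overlapped the undifferentiated level. Replicate 3 differed in markers. Its naive marker sum was 2201 CPM, against 3397 and 2885 CPM in replicates 1 and 2. Its mesenchyme sum was 69.7 CPM, against 15.1 and 16.3 CPM, and its endoderm sum 707 CPM, against 112 and 99.3 CPM. The part of these in the result was not tested.

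Day 2 sorted cells are the population to which AICAR was given. In AICAR GFP-positive cells against them, 0 members rose and 1 fell, beside 3.3% and 2.53% of all genes. It was Rpl41, with 38.5, 42.9 and 39.4 CPM in AICAR GFP-positive cells against 77.6 CPM in day 2 sorted cells (log2 fold change -0.93 ± 0.160 SE, adjusted p = 0.0417). The median of members was -0.30, with 0.08 over all genes. The count lower was 17 by DESeq2, beside 6.5% of all genes, 18 in the fit of all 19 libraries, beside 13.7%, and 29 without replicate 3, beside 14.2%. It was 0 without replicate 1 or 2, beside 0.753% and 0%. Rpl10l (37.2 CPM in day 2 sorted cells) and Rpl39l (31.4 CPM) had log2 fold changes of 0.65 and 0.96, which did not pass (adjusted p = 0.208 and 0.162).

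Between the AICAR fractions, no member passed the edgeR test in GFP-positive against GFP-negative cells, beside 0% of all genes. At unadjusted p under 0.05 there were 3 members, beside 22.3% of all genes, and DESeq2 called 1 member higher, beside 4.55%. The fold changes were positive for 72 of 74 members, with a median of 0.31 and 0.05 over all genes. Rpl10l had the lowest unadjusted p of the named members, with 68.6, 59.8 and 44.4 CPM in GFP-positive cells against 23.4 CPM in GFP-negative cells (log2 fold change 1.29 ± 0.301 SE, adjusted p = 0.147). Without replicate 3, 49 members were called higher in GFP-positive cells, beside 14.2% of all genes, and the fit of all 19 libraries called 7, beside 11.7%.

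Lines re-expanded in LIF and the inhibitors had higher TMM-scaled levels of most members than the AICAR GFP-positive cells. By share of gene reads the groups overlapped. Colony lines 1, 4, 5 and 7 (7.90%, 8.02%, 7.99% and 7.53%) lay below AICAR GFP-positive replicate 1 (8.06%). All colony lines lay above replicate 3 (7.14%). In colony lines, 46 of 74 members rose and 0 fell, beside 29.4% of all genes that rose and 28.4% that fell. The median log2 fold change was 0.34, with 0.00 over all genes. In sorted lines, 55 rose and 0 fell, beside 17.6% and 18.9% of all genes, with a median of 0.49 and -0.04 over all genes. AICAR GFP-positive libraries are shared by both comparisons. With total-read scaling, which moved the median of all genes to -0.18 and -0.22, the counts were 28 higher and 3 lower in colony lines, beside 19.4% and 39.6% of all genes. In sorted lines they were 36 higher and 0 lower, beside 11.6% and 26.4%. Within the first sequencing project, with AICAR GFP-positive replicate 3 alone as the comparison, 48 members were higher in colony lines, beside 21.4% of all genes, and 74 in sorted lines, beside 30.2%. Without sorted line 1, 2 members were higher in the sorted lines, beside 1.34% of all genes, and without sorted line 2 it was 3, beside 1.51%.

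Rpl41 had 58.5, 73.4 and 84.9 CPM as lowest, median and highest in colony lines and 80.1 and 82.2 CPM in sorted lines, against 38.5, 42.9 and 39.4 CPM in AICAR GFP-positive cells. Every line lay above every AICAR GFP-positive library. Log2 fold changes were 0.87 ± 0.106 in colony lines and 0.99 ± 0.101 in sorted lines (SE, adjusted p = 1.14e-05 and 0.002). Rpl8 spanned 1904 to 2483 CPM in colony lines, with a median of 2193 CPM, and had 2482 and 2452 CPM in sorted lines, against at most 1418 CPM in AICAR GFP-positive cells. Its log2 fold changes were 0.69 and 0.84 (adjusted p = 2.35e-05 and 0.0015). Rpl39 spanned 170 to 251 CPM in colony lines against 105 to 136 CPM, a log2 fold change of 0.69 (adjusted p = 0.000289). Rpl10l had a lowest, median and highest level of 72.3, 103 and 122 CPM in colony lines and 109 and 99.0 CPM in sorted lines, against 68.6, 59.8 and 44.4 CPM in AICAR GFP-positive cells. Its log2 fold changes were 0.77 ± 0.167 and 0.84 ± 0.178 (SE, adjusted p = 0.00131 and 0.014). In sorted lines its call was lost without either line, as were most others.

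Members without a call included Rps27l, Rps25, Rps20 and Rps21, none of which passed in either kind of line. Rps27l spanned 148 to 211 CPM in colony lines, between AICAR GFP-positive replicate 3 (147 CPM) and replicates 1 and 2 (264 and 248 CPM). Rps25 spanned 822 to 1011 CPM in colony lines, against 1052, 1018 and 731 CPM in AICAR GFP-positive replicates 1, 2 and 3. In both genes the colony lines lay above replicate 3, from the first sequencing project, and at or below replicates 1 and 2, from the second. Rpl39l spanned 44.4 to 72.6 CPM in colony lines and had 74.3 and 72.7 CPM in sorted lines, within the range of the AICAR GFP-positive libraries. Rpl3l was called in sorted lines, with 3.38 and 2.86 CPM against 1.27, 1.17 and 0.441 CPM (log2 fold change 1.63 ± 0.497 SE, adjusted p = 0.0436), and lost that call under DESeq2, no filter and total-read scaling and without 4 of the 5 libraries in turn.

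Colony lines did not reach the test's threshold against the undifferentiated library or the sorted lines. Against undifferentiated cells, edgeR called 0 members, beside 0% of all genes called higher and 0.0162% called lower, while 41 were lower at unadjusted p under 0.05, beside 19.2% of all genes in either direction. DESeq2 called 2 members lower, beside 0.715% of all genes. The median log2 fold change was -0.33 and 73 of 74 were negative. Rps6, for example, spanned 1621 to 2000 CPM in colony lines against 2179 CPM in undifferentiated cells (log2 fold change -0.30 ± 0.121 SE, adjusted p = 0.220). Against sorted lines, edgeR called 0 members, beside 0% of all genes in either direction. DESeq2 also called 0 members, beside 0.00842% of all genes in each direction. At unadjusted p under 0.05 there were 7 members, beside 9.12% of all genes. All 74 log2 fold changes were negative, with a median of -0.14 and 0.01 over all genes. A p that misses the threshold does not show that the levels are alike.

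Other genes of the translation machinery were set beside the members. They comprise 24 ribosome biogenesis factors, 73 mitochondrial ribosomal proteins, 16 other TOP mRNAs (translation factors and the like) and 16 regulators of the mTOR and MYC pathways. At day 15 against undifferentiated cells, all 24 biogenesis factors were over 1.5-fold lower, beside 36.2% of all genes, with a median log2 ratio of -1.98, as were 15 of 16 other TOP mRNAs (-1.16) and 63 of 73 mitochondrial ribosomal proteins (-1.24). Dkc1, the pseudouridine synthase of the nucleolus, had 41.4 CPM against 317 CPM. In the unfractionated AICAR culture, 23 of 24 biogenesis factors were over 1.5-fold higher than at day 15, beside 22.6% of all genes, with a median of 1.15, beside the 3 of 73 members with a median of 0.18. In AICAR GFP-negative cells the same held for 24 of 24, beside 24.2% of all genes, with a median of 1.22, beside 15 of 73 members with a median of 0.40. These comparisons share the day 15 library.

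In AICAR GFP-positive cells against day 15, 24 of 24 biogenesis factors rose by the edgeR test, beside 23.8% of all genes that rose and 22.8% that fell. Their median log2 fold change was 1.74, and among them were Dkc1 (230 against 41.4 CPM) and the RNA polymerase I factor Rrn3 (385 against 74.1 CPM). Of 73 mitochondrial ribosomal proteins 49 rose and 0 fell (median 1.03), and of 16 other TOP mRNAs 7 rose and 1 fell (median 0.70). The elongation factor Eef1b2 had 1067 CPM in AICAR GFP-positive cells against 546 CPM. Among mTOR and MYC regulators 7 of 16 rose and 2 fell. Mycn, a MYC family factor, had 152 CPM against 24.7 CPM (log2 fold change 2.67, adjusted p = 0.00357). In colony lines against AICAR GFP-positive cells, 19 of 24 biogenesis factors rose and 1 fell, beside 29.4% of all genes that rose and 28.4% that fell. Of 16 other TOP mRNAs 13 rose and 0 fell, of 73 mitochondrial ribosomal proteins 30 rose and 9 fell, and of 16 mTOR and MYC regulators 6 rose and 3 fell. Nucleolin (Ncl) had 4305 CPM in colony lines against 2581 CPM, and the translationally controlled Tpt1 had 1981 CPM against 1138 CPM. Mycn fell there, to 54.4 CPM in colony lines, against 152 CPM in AICAR GFP-positive cells (log2 fold change -1.48, adjusted p = 3.87e-08).

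**Figure D4:**
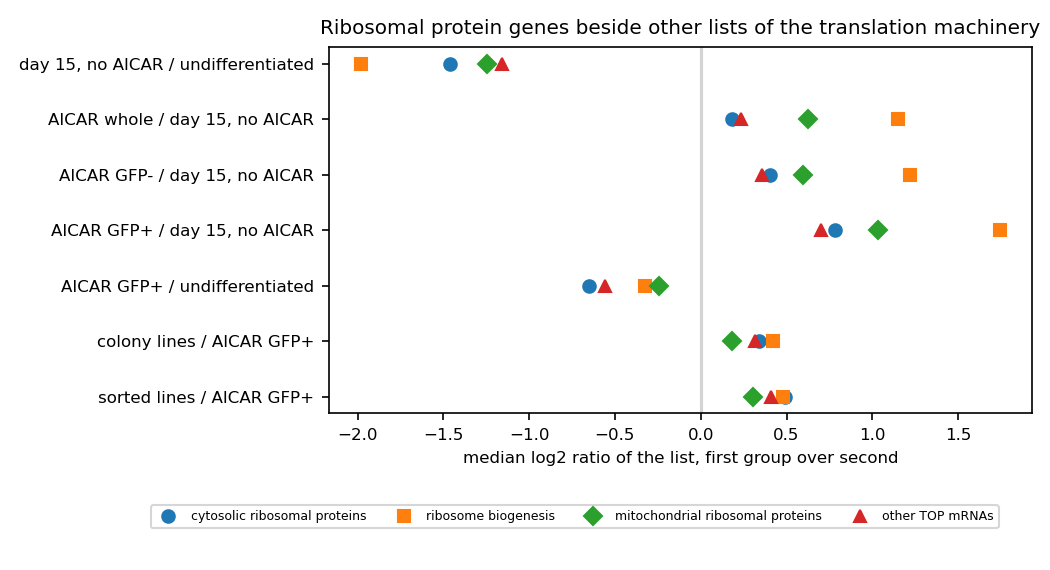
Median log2 ratio of the members and of 3 other lists in 7 comparisons, first group over second. Ribosome biogenesis factors have medians of 1.15 and 1.22 in the unfractionated AICAR culture and in AICAR GFP-negative cells over day 15, where the ribosomal protein genes have 0.18 and 0.40.

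Colony lines differed among themselves in these genes. The coefficient of variation over the 8 lines had a median of 11.2% over the 73 members with a mean of at least 50 CPM, against 8.09% over 3363 other genes in the same range. The summed share was 9.70% in line 9, 9.20% in line 3, 9.08% in line 6, 9.001% in line 10, 8.02% in line 4, 7.99% in line 5, 7.90% in line 1 and 7.53% in line 7. Line 9 was highest for 40 members and line 3 for 27, and line 7 was lowest for 57 members. Members shift together between lines, so these are not separate observations. No such count over all genes stands beside them. Rpl4 had the lowest coefficient of variation, 4.62%, with 3102 to 3519 CPM. Rpl3l, Rpl13 and Rps14 had the highest, at 35.9%, 19.4% and 19.4%. Summed ribosome biogenesis factors did not follow the members' order. They had 15032 CPM in line 9, where the members' share was highest, and 16569 CPM in line 7, where it was lowest. The other lists did split the lines as the members did. Mitochondrial ribosomal proteins summed to 4014 to 4207 CPM in lines 3, 6, 9 and 10. In lines 1, 4, 5 and 7 they summed to 3502 to 3750 CPM. Other TOP mRNAs summed to 34628 to 36918 CPM and 30265 to 33127 CPM in the same sets of lines.

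Each line was also tested against the other 7. Line 7 was the only one in which members were called: 0 higher, beside 0.41% of all genes, and 2 lower, beside 1.63%. Rpl13, a large subunit protein, had 1513 CPM in line 7, against 2447 to 3071 CPM in the other 7 lines (log2 fold change -0.85 ± 0.134 SE, adjusted p = 0.00806). Rpl13 lies on chromosome 8. Of the 199 genes called lower in line 7, 179 lie on chromosome 8, and the median log2 fold change of the 653 genes tested there was -0.53 in line 7. In the other 7 lines, the same chromosome had medians of 0.02 to 0.07. The median over all 74 members in line 7 was -0.23. In the 7 other lines no member was called by edgeR, beside 0 to 0.107% of all genes higher and 0 to 0.0082% lower, and DESeq2 called none of the members. At unadjusted p under 0.05, those lines had 0 to 3 members in each direction, beside 1.01 to 7.02% of all genes in either, and line 7 had 14 lower, beside 13.5%.

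**Figure D5:**
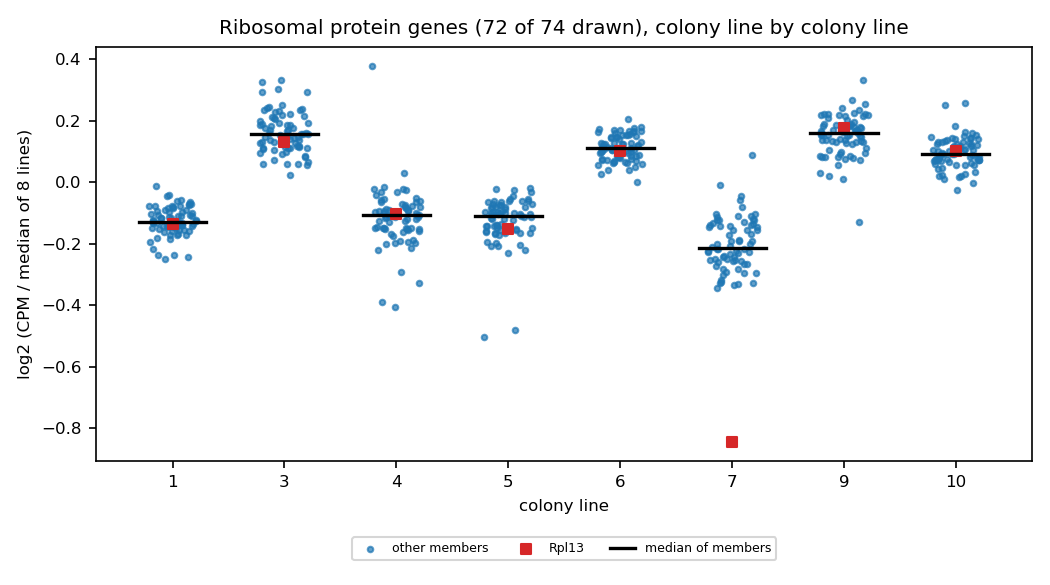
Log2 of each member's CPM over its median in the 8 colony lines, 1 point a gene, with the median of the members drawn per line; 72 of the 74 members are drawn. The medians of lines 3, 6, 9 and 10 lie above 0 and those of lines 1, 4, 5 and 7 below it, and Rpl13 stands apart in line 7 (1513 CPM).

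Between genes, levels can be compared per length only, as RPKM (reads scaled by gene model length and library size), here on models without 3′ untranslated regions. In undifferentiated cells the members spanned 2.61 RPKM (Rpl3l) to 4810 RPKM (Rps2), with a median of 2393 RPKM. Rpl10l had 171 RPKM there, against 2572 RPKM for Rpl10, and Rpl39l had 163 RPKM, against 1018 RPKM for Rpl39. At day 15 the median was 1102 RPKM, and Rplp1 was highest with 1971 RPKM. Rpl10l and Rpl39l had 1.57 and 7.56 RPKM at day 15. Within colony lines the median member had 1685 to 2134 RPKM, and in AICAR GFP-positive cells 1608 to 1864 RPKM.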

How the data were processed

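RNA from 19 libraries was measured by stranded mRNA sequencing. The authors deposited whole counts of uniquely mapped reads per gene and RPKM values on gene models without 3′ untranslated regions, per the file headers. Per the submitters' processing notes, the tools were Trimmomatic 0.3.3, Bowtie2 2.2.5 and TopHat2 2.0.14, with build mm9. The members, gene lists and comparisons were chosen with earlier results of these data known. The rule for named genes took the 4 most positive and 4 most negative called members of each comparison, plus paralogs and a few reference members. Groups with a replicated side were tested with edgeR 4.0.16 (quasi-likelihood, TMM, filterByExpr with a minimum count of 10, adjusted p under 0.05 over all genes; R 4.3.3). Single libraries were compared as log2 ratios with a prior count of 2 where either library had at least 100 reads. Scripts were tested on simulated data. Values of 1 member are not reported here. DESeq2 1.42.0, other scalings, filters and left-out libraries were tried. Chi-square per degree of freedom was 1.89 to 47.4 over 32 replicate pairs, where 1 is counting noise. Rn45s took 0.27 to 1.66% of reads. Chromosomes and start sites come from RefSeq on GRCm38.p6, and no coordinates of the files were used with them.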

Additional observations from a re-analysis of the deposited data

Results flagged for a closer look

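Within the 8 colony lines, 4 of the 74 members had 1 line far from the other 7 by Dixon's gap test. The test's nominal level is about 1 in 20 for separate genes. Members shift together between lines, and no share over all genes stands beside the count, so it cannot be set against chance. Those reported here are given below. Rpl13 had 1513 CPM in line 7, against 2447 to 3071 CPM in the others. Rpl3l had 3.07 CPM in line 9, which is 20 reads, against 1.18 to 2.06 CPM. Rps29 had 502 CPM in line 3, against 365 to 430 CPM.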

How the results depend on the processing

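With total reads, 55 of 74 log2 fold changes in colony lines against AICAR GFP-positive cells were positive and 19 negative, against 70 and 4 in the analysis reported, and the log2 ratio of Rpl4 in day 2 sorted cells over undifferentiated cells was 0.03. In AICAR GFP-positive cells against undifferentiated cells, the count of lower members was 58 by DESeq2, 62 in a fit of all 19 libraries, 4 with total reads and 0 to 67 with 1 replicate left out; 10 were called in the analysis reported. Against day 2 sorted cells the lower count was 17, 18 and 0 to 29 under the first, second and last of these, and the higher count was 2 in the fit of all libraries and 0 to 3 with 1 left out. Against AICAR GFP-negative cells, the higher count was 1 by DESeq2, 7 in the fit of all libraries and 0 to 49 with 1 left out. Against day 15, it was 2 to 72 with 1 left out. In the fit of all libraries, the 2 members higher than in day 2 sorted cells stood beside 14.4% of all genes. Where replicate 3 was left out, cell state and sequencing project cannot be told apart. The cause was not tested.

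In colony lines against AICAR GFP-positive cells, total reads gave 28 higher and 3 lower, beside 19.4% and 39.6% of all genes. Leaving out 1 library gave 37 to 48 higher, beside 26 to 29.3%, and 0 to 1 lower, beside 25.9 to 29.5%. In sorted lines, total reads gave 36 higher, beside 11.6%. Leaving out 1 AICAR GFP-positive replicate gave 40 to 64 higher, beside 13.9 to 25.4%, and 0 to 1 lower, beside 14.9 to 26.6%. The much lower counts without either sorted line are given in the results, and the median log2 fold changes there were 0.47 and 0.51. With a replicate block the sorted lines had 65 higher, beside 27.5% of all genes, and 2 lower, beside 28.8%. Whether equal numbers pair these libraries is not stated. Correlations of same-numbered deviations were 0.0235 and 0.0320, which cannot decide it with only 2 sorted lines. DESeq2 called 2 members lower in colony lines against undifferentiated cells. At a 2-fold limit, 2 members were higher in AICAR GFP-negative cells than at day 15, 33 lower than in undifferentiated cells, and 1 lower at day 2 and in day 2 sorted cells each.

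With the joined entries added, shares were 6.68% in AICAR GFP-negative cells, 8.20% in AICAR GFP-positive cells, 5.92% in the unfractionated culture, 4.99% at day 15, 11.03% at day 2, 9.86% in day 2 sorted cells, 10.0% in sorted lines and 11.3% in undifferentiated cells. Without Rn45s they were 6.29% in AICAR GFP-negative cells, 4.69% at day 15, 10.4% at day 2, 9.30% in day 2 sorted cells and 10.7% in undifferentiated cells; no mitochondrial genes were found to remove. Of the alternative values of these counts and shares, 44 moved past their limits and 270 stayed within them. For a count, the limit was a 1.5-fold change, and a change to or from 0 was past it. Depth limits Rpl3l, Rpl10l and Rpl39l at day 15, which rest on 0, 8 and 20 reads.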
